A study of Mus musculus with 2 samples.

Results

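TGF-beta pathway genes were followed in leukocytes of the pressure-overloaded mouse heart. The members were taken by symbol, with no threshold on a measured value, and all 10 of the 10 were found among the 27809 genes of the matrix. They were the ligand gene Tgfb1, the genes of 2 proteins that hold the latent ligand (Nrros and Ltbp1), the receptor genes Tgfbr1 and Tgfbr2, the transducer Smad3, the inhibitors Smad7, Skil and Tgif1, and Tgfbi, the gene of a matrix protein that was named after its induction by TGF-beta. Hearts were taken 1 week after transverse aortic constriction (TAC), which loads the left ventricle with pressure, or after sham surgery, from male mice of C57BL/6 background, and CD45+ cells (leukocytes) were selected on magnetic beads. The paper names the C57BL/6N substrain for purchased mice and no substrain for the CD3e-/- mice. The 5 groups were WT sham, CD3e-/- sham, WT TAC, CD3e-/- TAC and WT TAC with an antibody to CD8, and a run of 5 values follows this order. CD3e-/- mice lack a chain of the T cell receptor complex in all cells from birth and so have no mature T cells. Cells of each group carried 1 hashtag, and all shared 1 TAS-Seq library (BD Rhapsody wells), so each group was 1 sample and no test between groups was possible.

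TGF-beta1 leaves the cell in a latent complex with its own propeptide, which is anchored to the matrix by LTBP1 or to the surface of macrophages by NRROS and must be released before it can signal. The freed ligand binds the type II receptor TGFBR2, which activates the type I receptor TGFBR1, and this phosphorylates SMAD2 and SMAD3, which enter the nucleus. SMAD7 blocks the receptor, and SKIL (SnoN) and TGIF1 repress transcription at SMAD-bound genes. In the heart the pathway is known for fibrosis, and in macrophages for the maintenance of resident cells.

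The 250 bases before the start of 3 members are printed, since the comparisons of groups and gates below turn mainly on these members. They are from RefSeq on GRCm38.p6, the build that the processing notes of the submitters name without its patch, and 8 of the 10 members had an entry in the table. Capitals mark GAGGAA, the core that PU.1, a factor of all myeloid cells, is known to bind, and CAGAC, the core bound by SMAD3, each on either strand, where CAGAC reads GTCTG on the other strand. The letters of the 2 motifs are not part of each other.
Tgfbi, chr13:56609336-56609585, plus strand: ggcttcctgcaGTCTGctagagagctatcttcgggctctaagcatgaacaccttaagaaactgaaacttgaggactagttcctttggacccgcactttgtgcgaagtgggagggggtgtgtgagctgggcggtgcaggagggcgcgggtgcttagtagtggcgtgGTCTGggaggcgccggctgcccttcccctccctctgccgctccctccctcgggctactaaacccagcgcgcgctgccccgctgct
Tgfbr1, chr4:47352972-47353221, plus strand, the first of its entries: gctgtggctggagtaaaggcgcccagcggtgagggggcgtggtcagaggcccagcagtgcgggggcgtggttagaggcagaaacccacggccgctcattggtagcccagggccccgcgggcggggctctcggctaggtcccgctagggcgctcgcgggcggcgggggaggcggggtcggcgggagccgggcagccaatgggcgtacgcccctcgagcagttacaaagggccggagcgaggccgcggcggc
Tgfbr2, chr9:116175364-116175613, minus strand: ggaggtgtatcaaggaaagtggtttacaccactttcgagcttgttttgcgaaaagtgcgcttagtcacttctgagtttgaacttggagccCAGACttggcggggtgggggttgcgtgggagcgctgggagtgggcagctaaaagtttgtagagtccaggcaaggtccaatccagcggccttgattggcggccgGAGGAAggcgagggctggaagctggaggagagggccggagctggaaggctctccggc
The Tgfbi window held CAGAC 2 times, 85 and 239 bases before the start, and no GAGGAA. The Tgfbr2 window held each motif 1 time, GAGGAA 57 bases and CAGAC 160 bases before the start. Neither was in the printed Tgfbr1 window, in which 74.8% of the bases were G or C, while the second Tgfbr1 entry held both, 95 and 203 bases before its start. Of the 32851 windows of this length in the table, 23.3% held GAGGAA and 42.2% held CAGAC, so the letters are common and these matches are a description only.

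The matrix held 5363 columns, of which the authors marked 40 (0.746%) as doublets and 8 had no hashtag. The deposited notes describe a larger share of doublets, so others may be unmarked or were removed before deposit, which was not tested. Filters of at least 500 genes per cell and no more than a 0.4 share of mitochondrial reads left 1000, 835, 1615, 919 and 894 cells, with 91899777 to 208758777 reads and medians of 75442 to 117788 reads per cell, and no barcode was shared by hashtags. The reads of T cell genes were checked first. Cd3g was 45.6, 0.555, 17.5, 0.0661 and 22.5 CPM (reads per 1000000 reads) over all kept cells, while Cd3e itself kept 3.73 and 5.64 CPM in the CD3e-/- groups against 10.8 to 17.8 CPM in the others. Cd8a or Cd8b1 was read in 4 of the 28 Cd3g-gated cells under the antibody to CD8, which were 0.447% of its kept cells (0.122% to 1.14%), and in 9 of 39 in WT TAC, which were 0.557% (0.255% to 1.06%). A loss of these cells was not detectable at this depth, so that group is called by its label, CD8-depleted TAC, and not by what the antibody did. The paper counted CD4+ and CD8+ T cells of hearts by flow cytometry in its depletion experiments. These few reads do not replace that measure of protein. Intervals are exact, at 95%, and cover counting error only, which they understate because reads of 1 molecule are not independent.

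Cells were gated by their own CPM. Cells with Csf1r of at least 100 and Lyz2 of at least 1000 CPM were taken as monocytes and macrophages (613, 515, 1176, 681 and 649 cells, 3634 in all). These were parted in order into Ly6c2+ (at least 500 CPM, 545 cells), Cd209a+ (200 CPM, 168 cells), Lyve1+ (100 CPM, 203 cells), Ccr2+ (1000 CPM, 1253 cells) and the remaining Ccr2-low cells (1465 cells). Cd79a+ cells (100 CPM, 465 cells) and Cd3g+ cells (50 CPM, 117 cells) were gated outside, 72 cells with marks of more than 1 class were left out, and 975 cells met no gate. Of the markers that no gate used, those of B cells, T cells and resident macrophages were highest in the matching gate, while those of Ccr2+ macrophages (H2-Aa, Cd74, Ear2 and Plac8) summed to 41989 CPM in Cd209a+, 27634 CPM in Ccr2+ and 20194 CPM in Cd79a+ cells and so did not mark the Ccr2+ gate. The B cell marker Ms4a1 was 1642 CPM in Cd79a+ cells against at most 1.40 CPM in the other 6 gates, and Cd79b was 1387 CPM against at most 21.98 CPM, the T cell markers were 2418 CPM in Cd3g+ cells against at most 20.5 CPM, and Folr2, Cd163, Timd4, F13a1 and Gas6 of resident macrophages were 4815 CPM in Lyve1+ cells against at most 832 CPM. The NK cell markers Ncr1, Klrb1c, Gzma and Nkg7 were also highest in Cd3g+ cells. They summed to 753 CPM there (607 CPM of it Nkg7), 218 CPM in ungated cells and at most 8.55 CPM in the other 6 gates. CD3e-/- sham had 3 Cd3g+ cells and CD3e-/- TAC 0 of 919, which allows a share of up to 0.326% (taken as 3 cells of 919). Groups with fewer than 10 cells in a gate are left out of its values.

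Of the members above 20 CPM, Tgfbi differed most with TAC, while the ligand, its anchor NRROS, both receptors and Skil differed by less than 1.5-fold between the groups compared when all monocytes and macrophages were summed. In the Csf1r+ Lyz2+ cells Tgfbi stood at 806, 777, 1306, 1347 and 1373 CPM, so that both sham groups lay below all 3 TAC groups. The fold of WT TAC over WT sham was 1.61, and that of CD3e-/- TAC over CD3e-/- sham 1.72, both with 10 CPM added to each level, as for all ratios between groups here. After each cell was thinned to 30000 reads, the share of cells with a Tgfbi read was 86.1% (83.1% to 88.8%) in WT sham and 87.7% (85.6% to 89.5%) in WT TAC, and 87.4% (84.2% to 90.2%) and 92.8% (90.5% to 94.6%) in CD3e-/- sham and TAC. It was 5.82% in Cd79a+ cells, the background here. Their median depth was 47251 reads per cell before thinning and that of the Csf1r+ Lyz2+ cells 100176. The intervals of sham and TAC overlapped in WT mice and were apart in CD3e-/- mice.

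**Figure D1:**
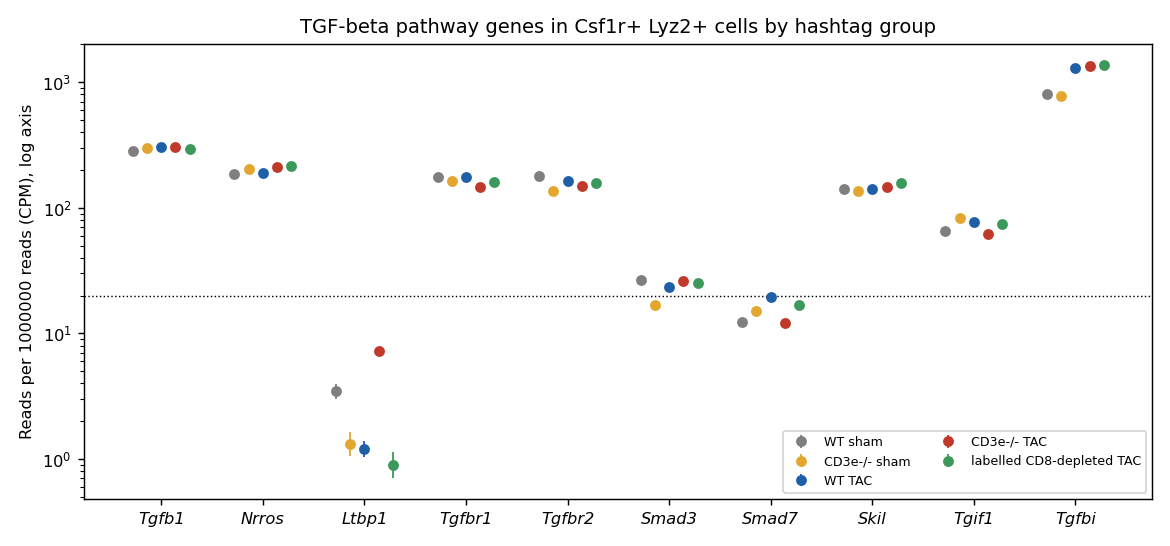
Summed reads of each TGF-beta pathway gene per 1000000 reads (CPM, log axis) in the Csf1r+ Lyz2+ cells of the 5 hashtag groups; points are 1 sample each, bars are exact 95% Poisson intervals and the dotted line is the limit of 20 CPM. Tgfbi lies at 777 to 806 CPM in the sham groups and 1306 to 1373 CPM in the TAC groups, while Ltbp1 and Smad7 lie below the line in every group; levels are not set against each other between genes.

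The ligand gene Tgfb1 was 286, 299, 303, 303 and 296 CPM, with a mean of 297 CPM and an SD of 7.09 CPM over the 5 groups. Nrros was 186, 206, 191, 211 and 215 CPM. The sham and TAC values of both genes overlapped, as did those of Ltbp1, which is described with its cells below.

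Summed over the Csf1r+ Lyz2+ cells, the receptor genes moved little and without a common order. Within some gates sham and TAC groups were apart, as given with the gates below. Tgfbr1, the type I receptor, was 177, 163, 176, 147 and 160.2 CPM, lowest in CD3e-/- TAC. Tgfbr2, the type II receptor, was 179, 135, 164, 150.5 and 159 CPM, lowest in CD3e-/- sham. The largest of their log2 ratios between groups were -0.24 for Tgfbr1 (CD3e-/- TAC over WT TAC) and -0.38 for Tgfbr2 (CD3e-/- sham over WT sham).

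Among the transducer and the inhibitors, Smad3 was 26.9, 16.9, 23.2, 26.4 and 24.98 CPM and thus lowest in CD3e-/- sham. Smad7, the inhibitor of the receptor, was 12.3, 15.0, 19.6, 12.04 and 16.7 CPM, below 20 CPM in each group. The repressor gene Skil was 140.0, 137, 142, 147 and 158 CPM. Tgif1 was 65.2, 83.3, 77.7, 61.5 and 74.5 CPM, with both CD3e-/- groups at the ends of the order. The log2 ratio of Smad7 was 0.41 for WT TAC over WT sham and -0.18 for CD3e-/- TAC over CD3e-/- sham, that of Tgif1 was 0.22 and -0.38, and that of Smad3 was -0.15 and 0.44.

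Counted by a fold of 1.5 and a level of at least 20 CPM in 1 or more groups, which 8 of the 10 members and 7318 genes reached, Tgfbi was the 1 member past the fold for TAC over sham in WT (3.44% of all genes were higher and 2.57% lower by that fold) and in CD3e-/- mice (5.56% higher and 3.57% lower). For CD3e-/- sham over WT sham 0 members were past the fold, where 1.31% of all genes were higher and 1.71% lower. None passed for CD3e-/- TAC over WT TAC (1.04% of all genes higher and 0.67% lower) and none for the group labelled CD8-depleted TAC over WT TAC (0.67% higher and 0.205% lower). The median log2 ratio of the 10 members was 0.03 in the first comparison and 0.07 in the second, against 0.03 and 0.05 over all 7318 genes. Both TAC over sham comparisons had their own controls, but the WT TAC group stands in 3 of the 5 comparisons, so these are not independent of each other.

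**Figure D2:**
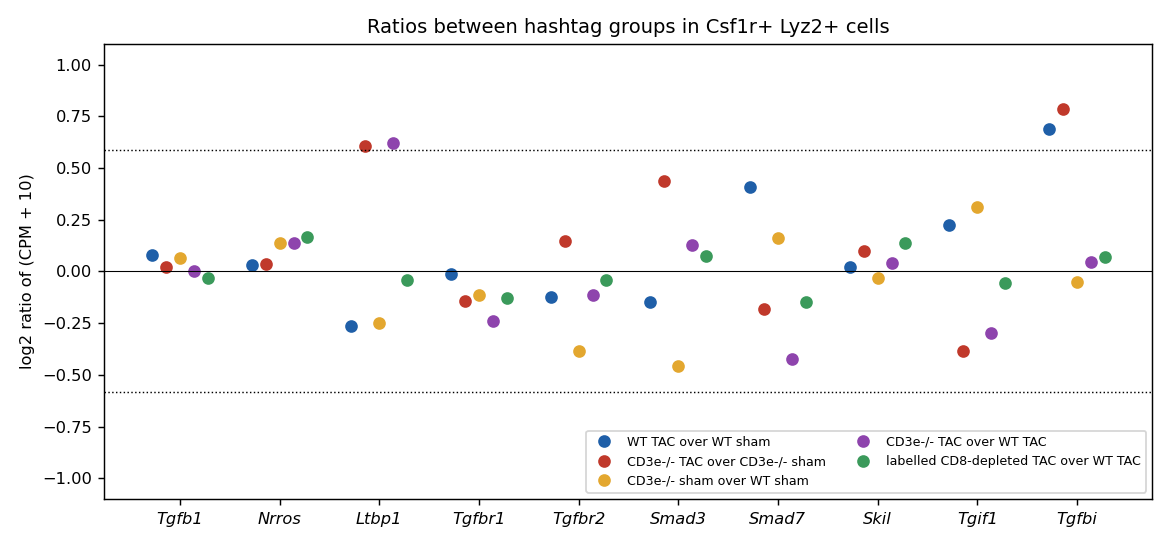
Log2 ratios of CPM with 10 CPM added between hashtag groups in Csf1r+ Lyz2+ cells, 1 point for each member and comparison, with dotted lines at a fold of 1.5. Only Tgfbi (0.69 and 0.79 for TAC over sham) and the low Ltbp1 (0.61 and 0.62 for CD3e-/- TAC over CD3e-/- sham and over WT TAC) lie outside the lines.

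Among the 5 gates of monocytes and macrophages, the folds of Tgfbi for TAC over sham were highest in Ly6c2+ monocytes. In Ly6c2+ cells Tgfbi was 905, 1126, 2374, 2172 and 2475 CPM, folds of 2.60 for WT TAC over WT sham and 1.92 for CD3e-/- TAC over CD3e-/- sham, although the sham values rest on 26 and 35 cells. In Ccr2+ cells it was 961, 826, 1352, 1449 and 1276 CPM, and again both sham groups lay below the TAC groups. In Lyve1+ cells, by contrast, it was 972, 851, 898, 956 and 1026 CPM, and sham and TAC overlapped. It also overlapped in Ccr2-low cells at 693, 740.2, 920.3, 726 and 810.0 CPM, and in Cd209a+ cells, at 524 to 674 CPM over 4 groups. Outside these gates, where its level was low, Tgfbi was 29.0 CPM in Cd3g+ cells of WT sham and 166 CPM in those of WT TAC (a log2 ratio of 2.17). In Cd79a+ cells, whose share was taken above as the background, it was 48.5 CPM in CD3e-/- sham and 197 CPM in CD3e-/- TAC (a log2 ratio of 1.82). In WT mice it went the other way there, from 50.04 CPM in sham to 43.1 CPM in TAC. None of these differences between gates was tested, since each group was 1 sample.

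The values of Skil and Tgfbr1 also differed between sham and TAC groups within a gate, which was not tested. These cases were picked from all members and gates. The share of all genes that differed as much within a gate was not computed. In Ly6c2+ cells the sham values rest on 26 cells in WT and 35 cells in CD3e-/- mice. These differences were therefore not told apart from the spread of sums over few cells. In Ly6c2+ cells the repressor gene Skil was 126, 92.7, 211, 158 and 196 CPM, folds of 1.63 in WT and 1.64 in CD3e-/- mice, and both sham groups lay below the TAC groups. Tgfbr1 was likewise lower in both sham groups there, at 53.7 and 46.1 CPM against 61.6 to 105 CPM (folds of 1.81 and 1.28). In Lyve1+ cells Skil was 79.0, 118, 97.3, 218 and 100.7 CPM, highest in CD3e-/- TAC, which had 15 such cells. The order of sham and TAC groups for the receptor genes in Ccr2+ and Ccr2-low cells is given with those gates below.

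The share of Ly6c2+ cells moved in the same direction, at 2.60%, 4.19%, 10.4%, 18.6% and 16.2% of the kept cells. With the levels of the gates weighted by their shares of reads in WT sham, Tgfbi was 1.35-fold higher in WT TAC than in WT sham and 1.35-fold higher in CD3e-/- TAC than in CD3e-/- sham, so neither reached 1.5. As a mean over cells, which gives each cell the same weight, the fold in WT mice was 1.497, and after thinning it was 1.499.

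**Figure D3:**
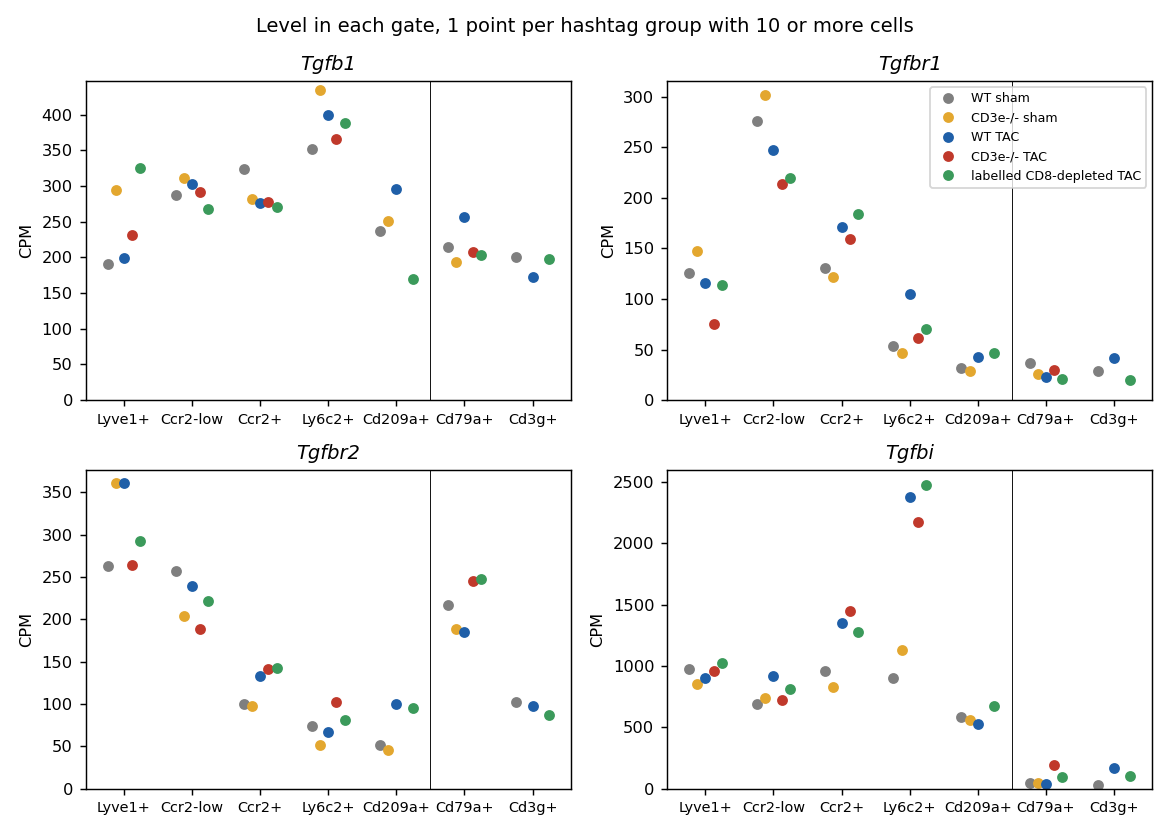
Level (CPM, linear axis from 0) of Tgfb1, Tgfbr1, Tgfbr2 and Tgfbi in each gate, 1 point for each hashtag group with 10 or more cells in the gate; the vertical line parts the 5 gates of monocytes and macrophages from Cd79a+ and Cd3g+ cells. Tgfbr2 falls from 263 to 361 CPM in Lyve1+ cells to 52.0 to 103 CPM in Ly6c2+ cells, and Tgfbi in Ly6c2+ cells lies at 905 and 1126 CPM in sham and 2172 to 2475 CPM in TAC.

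The gates differed more in receptor level than the groups did when all Csf1r+ Lyz2+ cells were summed. Within a gate the groups differed as well. In Ly6c2+ cells they spanned 46.1 to 105 CPM for Tgfbr1 and 52.0 to 103 CPM for Tgfbr2. Tgfbr2 was highest in Lyve1+ resident macrophages, at 263, 361, 361, 264 and 292 CPM, and in Ccr2+ cells it was 100.2, 97.4, 133, 142 and 142 CPM, so the gates did not overlap. In Ccr2+ cells both sham groups lay below the TAC groups, which was not tested. In 1 fit over 32 sums of reads per gate and group, with the group as a block, Tgfbr2 was higher in Lyve1+ than in Ccr2+ cells by a log2 ratio of 1.36 ± 0.18 (SE, edgeR quasi-likelihood test, Benjamini-Hochberg adjusted p = 2.0e-05) and higher in 5 of 5 groups. It was the 1 member called in this comparison, in which 2.77% of the 16604 genes tested were called higher and 5.6% lower. All 10 members passed the filter on low counts of this fit.

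Ly6c2+ monocytes had less of both receptor genes than Ccr2+ cells, and they were the 2 members called there, where 1.6% of all genes were called higher and 2.0% lower. Tgfbr1 was 53.7, 46.1, 105, 61.6 and 70.0 CPM in Ly6c2+ and 131, 122, 171, 159.7 and 185 CPM in Ccr2+ cells, with no overlap and a log2 ratio of -1.19 ± 0.22 (SE, edgeR, adjusted p = 0.0019). In Ccr2+ cells both sham groups lay below the TAC groups for Tgfbr1 too, which was not tested. Tgfbr2 was 73.9, 52.0, 66.8, 103 and 81.0 CPM in Ly6c2+ cells, lower than in Ccr2+ cells within each of the 5 groups (log2 ratio -0.68 ± 0.18, edgeR, adjusted p = 0.031). The call of Tgfbr2 depended on which group was left out. Its adjusted p (edgeR) was 0.083 to 0.169 without WT sham, CD3e-/- sham, WT TAC or the group labelled CD8-depleted TAC, and 0.036 without CD3e-/- TAC.

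The ligand gene lay the other way round. Tgfb1 was 352, 434, 399.9, 365 and 388 CPM in Ly6c2+ cells and 324, 282, 276, 278 and 271 CPM in Ccr2+ cells, higher in 5 of 5 groups and without overlap. Its log2 ratio of 0.46 ± 0.14 did not pass the threshold (edgeR, adjusted p = 0.083), but did with DESeq2 (adjusted p = 0.019) and with doubled gate limits, and over all alternatives the adjusted p was 0.019 to 0.307. Nrros was 198, 249.4, 239, 257 and 240.3 CPM in Ly6c2+ cells, also higher in 5 of 5 groups but not called (log2 ratio 0.26 ± 0.15, edgeR, adjusted p = 0.46).

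Tgfbr1 was highest in the Ccr2-low cells, a comparison that was not tested. It was 276, 301, 248, 214 and 219 CPM there, above every Ccr2+ value, and 126, 147, 115, 75.0 and 114 CPM in Lyve1+ cells. In Ccr2-low cells both sham groups thus lay above the TAC groups, the other way from Ccr2+ cells, which was not tested. Tgfbr2 was 257, 204, 239.7, 189 and 222 CPM in Ccr2-low cells and so lay below its Lyve1+ value in each group. The order of Tgfbr1 over the gates of monocytes and macrophages, pooled over groups, was Ccr2-low (246 CPM), Ccr2+ (160.1 CPM), Lyve1+ (116 CPM), Ly6c2+ (75.6 CPM) and Cd209a+ (34.4 CPM). The group values of each neighbouring pair in this order overlapped, apart from those of Ccr2-low and Ccr2+ cells.

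A cell needs both receptors to respond, and their reads were counted in the same cells after thinning. Both were read in 49.4% (46.7% to 52.0%) of Ccr2-low cells, 37.6% (34.9% to 40.4%) of Ccr2+ cells and 33.2% (26.7% to 40.2%) of Lyve1+ cells. The share was 18.7% (15.5% to 22.3%) in Ly6c2+ and 15.0% (9.93% to 21.3%) in Cd209a+ cells, and 8.61% (6.03% to 11.8%) in Cd79a+ cells. These shares lay near the product of the shares with each receptor, which was 46.7% in Ccr2-low, 33.5% in Ccr2+, 33.1% in Lyve1+ and 18.9% in Ly6c2+ cells.

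Between Cd79a+ and Ccr2+ cells 7 members were called, where 12.5% of all genes were called higher and 20.1% lower. Between Cd3g+ and Ccr2+ cells 7 were called, where 6.49% of all genes were called higher and 11.0% lower. Some of these calls were lost under alternatives, as given below. Among Cd79a+ cells Smad7 was 108, 169, 127, 172 and 94.5 CPM, against 13.2, 11.5, 19.7, 10.8 and 10.1 CPM in Ccr2+ cells, so the lowest Cd79a+ value was above the highest Ccr2+ value. Its log2 ratio was 3.17 ± 0.46 (SE, edgeR, adjusted p = 5.5e-06). Tgfbr2 was 218, 189, 185, 245 and 247 CPM in Cd79a+ cells, also without overlap (log2 ratio 0.61 ± 0.18, edgeR, adjusted p = 0.010). Tgfbr1 instead was down to 37.0, 25.5, 22.8, 29.7 and 21.1 CPM (log2 ratio -2.70 ± 0.23, edgeR, adjusted p = 1.3e-09).

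Of the members, 3 were called higher in Cd79a+ than in Ccr2+ cells (Smad7, Tgfbr2 and Tgif1) and 4 lower (Tgfbi, Tgfbr1, Nrros and Tgfb1), where 12.5% of all genes were called higher and 20.1% lower. Tgfbi was 50.04, 48.5, 43.1, 197 and 99.7 CPM in Cd79a+ cells, and its log2 ratio was -4.08 ± 0.34 (edgeR, adjusted p = 8.7e-10). Nrros had a log2 ratio of -1.38 ± 0.15 and Tgfb1 of -0.64 ± 0.14, lower in 5 of 5 groups each (edgeR, adjusted p = 6.9e-08 and 0.0011). Tgif1 was 163, 173, 79.8, 91.1 and 98.7 CPM in Cd79a+ cells, so that the 3 TAC groups lay below both sham groups there, a difference that was not tested. Against Ccr2+ cells its log2 ratio was 0.54 ± 0.20 (edgeR, adjusted p = 0.039), and the call was lost without WT sham, CD3e-/- sham or the group labelled CD8-depleted TAC (adjusted p of 0.083 to 0.167). It was also lost with no filter on counts, without the group as a block and with doubled gate limits (adjusted p of 0.139, 0.058 and 0.243). The call of Tgfbr2 was lost without WT sham, with no filter on counts and with doubled gate limits (edgeR, adjusted p of 0.056, 0.051 and 0.067).

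In Cd3g+ cells, of which WT sham, WT TAC and the group labelled CD8-depleted TAC had 47, 39 and 28, Smad7 was 78.4, 47.1 and 64.8 CPM and again above every Ccr2+ value (log2 ratio 2.01 ± 0.50, edgeR, adjusted p = 0.0048). It was the 1 member called higher, where 6.49% of all genes were, and 6 members were called lower, where 11.0% of all genes were. Tgfbr1 was 28.8, 42.0 and 19.4 CPM (log2 ratio -2.70 ± 0.29, edgeR, adjusted p = 1.8e-07), Nrros had a log2 ratio of -2.05 ± 0.19 and Tgfbi of -3.89 ± 0.42. Tgif1, higher in B cells, was lower in Cd3g+ cells, at 25.8, 37.8 and 23.9 CPM and without overlap with Ccr2+ cells (log2 ratio -1.54 ± 0.25, edgeR, adjusted p = 6.3e-05). Tgfb1 was 199.95, 173 and 197 CPM (log2 ratio -0.85 ± 0.17, edgeR, adjusted p = 0.00087). Tgfbr2 was called by a small margin (log2 ratio -0.64 ± 0.22, edgeR, adjusted p = 0.040), although its level of 103 CPM in Cd3g+ cells of WT sham was not below the 100.2 CPM of Ccr2+ cells, and it was not called with median-of-ratios scaling (adjusted p = 0.091), with DESeq2 (adjusted p = 0.061), with doubled gate limits (adjusted p = 0.290), or without CD3e-/- TAC, WT TAC or the group labelled CD8-depleted TAC (adjusted p of 0.101 to 0.299). Over all alternatives its adjusted p was 0.0084 to 0.299.

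Smad3, Skil and Ltbp1 were called in none of the 4 comparisons of gates. Smad3 was 19.5 to 27.01 CPM in Ccr2+ cells, 12.1 to 44.7 CPM in Ly6c2+ cells and 8.08 to 20.8 CPM in Cd79a+ cells, and its lowest adjusted p (edgeR) was 0.074, for Cd79a+ cells (log2 ratio -0.73 ± 0.31). Skil was 119.7 to 157 CPM in Ccr2+, 92.7 to 211 CPM in Ly6c2+ and 86.5 to 132 CPM in Cd79a+ cells. A missed threshold does not show that these levels were equal.

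**Figure D4:**
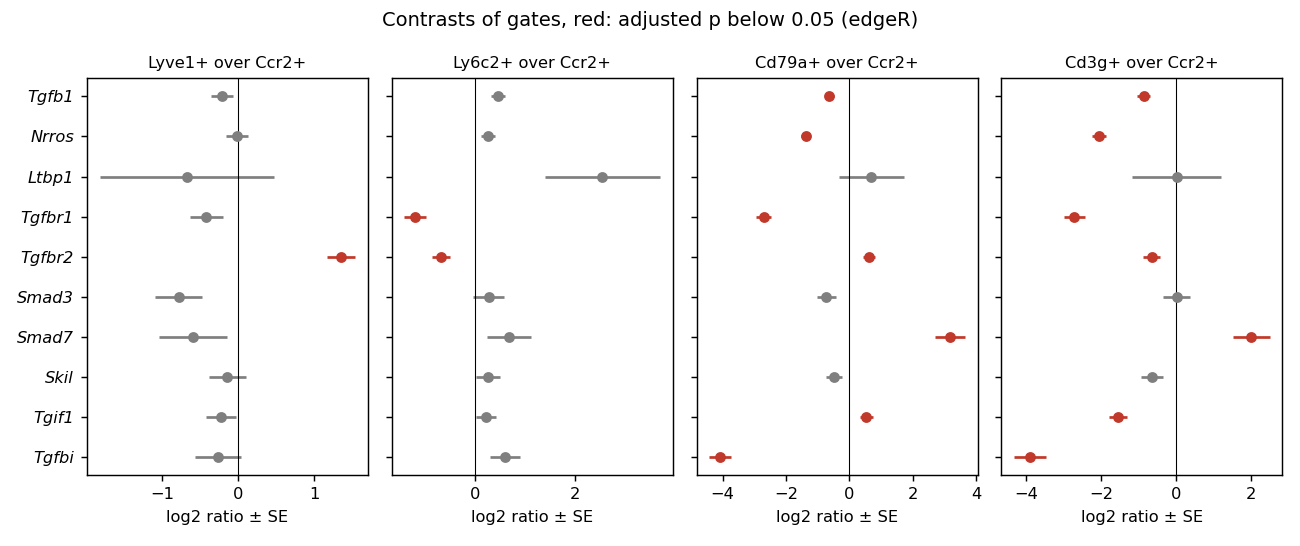
Log2 ratio ± SE of each member in 4 comparisons of gates over 5 hashtag groups (3 for Cd3g+ cells), from 1 edgeR fit with the group as a block; red points passed an adjusted p of 0.05. Tgfbr2 is the 1 red point for Lyve1+ over Ccr2+ cells (1.36), both receptors are red and below 0 for Ly6c2+ cells, and Smad7 is far above 0 in Cd79a+ (3.17) and Cd3g+ cells (2.01).

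Ltbp1, whose product ties latent TGF-beta to the matrix and is made mainly by stromal cells, was read in few cells. Over all kept cells it was 8.79, 4.09, 1.72, 6.27 and 1.70 CPM, and in the Csf1r+ Lyz2+ cells 3.46, 1.32, 1.21, 7.23 and 0.897 CPM. In WT sham 627 of its 841 reads (74.6%) and in CD3e-/- sham 276 of 376 (73.4%) lay in cells that met no gate, in which Col1a1, Dcn and Pdgfra of fibroblasts summed to 1892 and 2210 CPM. The same markers summed to 93.4, 48.4, 2.33, 2.24 and 0.872 CPM in the Csf1r+ Lyz2+ cells, and Dcn was at 0 there in all 3 TAC groups; their part in the Ltbp1 level was not tested. In the Ly6c2+ cells of WT sham 147 of 149 reads of Ltbp1 were in 1 cell.

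The high Ltbp1 of CD3e-/- TAC came from few cells as well. Of its 791 reads in Csf1r+ Lyz2+ cells, 81.9% lay in 18 cells with at least 100 CPM of Prg4, a gene of macrophages of the serous cavities, and these cells held 6.62% of all reads there. Such cells numbered 2, 1, 1, 18 and 7 in the 5 groups, and the 7 such cells under the antibody to CD8 held 44.4% of its Ltbp1 reads. The cavity macrophage markers Gata6, Prg4 and Saa3 summed to 9.70, 7.66, 15.9, 1307 and 199 CPM in the Csf1r+ Lyz2+ cells. Most of the sum in CD3e-/- TAC was Saa3 (1170 CPM), and Prg4 (134 CPM) is the gene that picked the cells. Gata6 was low in each group, at 1.02, 0.290, 1.27, 2.39 and 1.17 CPM. The markers thus did not all rise together, and the cells are named by Prg4 only. Of the other members, these 18 cells held between 1.94% (Tgfbi) and 10.5% (Smad3) of the reads. With a read in 0% to 3.04% of the thinned cells of each gate, Ltbp1 was read in few cells of any gate, and at the limit of 20 CPM it did not enter the counts of members past a fold of 1.5.

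**Figure D5:**
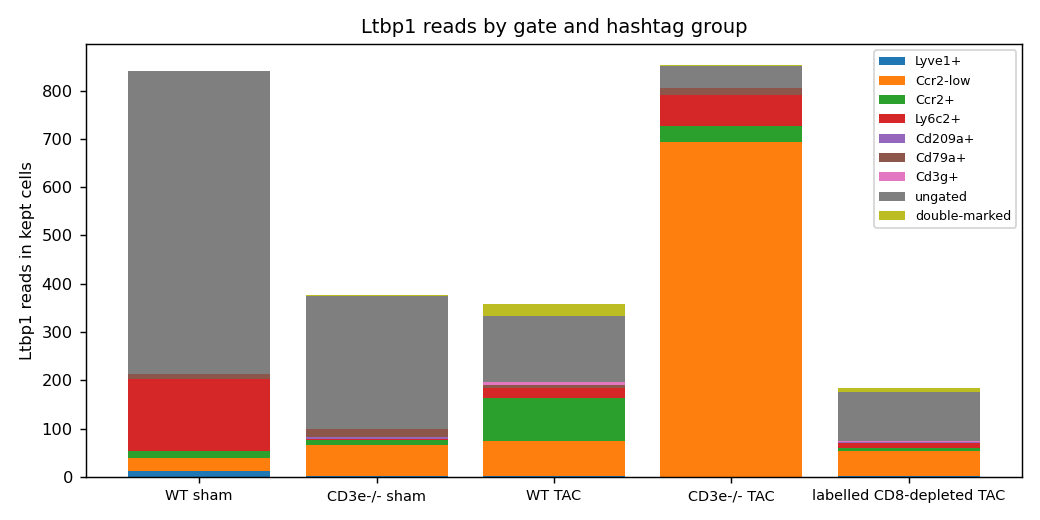
Number of Ltbp1 reads in the kept cells of each hashtag group, stacked by gate. Most reads of both sham groups lie in ungated cells (627 and 276), and most of CD3e-/- TAC in Ccr2-low cells (693).

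The genes most alike to 4 members were looked for over the 32 sums of gate and group, by Pearson's r of log2 levels with 10 CPM added among 6971 genes with a mean of at least 20 CPM. They were Tnfaip2, Ace and Serpinb10 for Tgfb1 (r of 0.802, 0.798 and 0.790), and Clec4a1, Ms4a6d and Fcgr1 for Tgfbi (0.946, 0.946 and 0.944). Among the genes most like Tgfbr1 were Tmem119 and Ms4a7 (0.922 and 0.905), of which the first is known as a marker of microglia, the macrophages of the brain. Ltbp1 was most like Dcn, the gene of the matrix protein decorin, Gsn, the gene of the actin-severing protein gelsolin, and Uap1 (0.766, 0.736 and 0.604). The sums share groups, the pooled library and differing depth, so these values are descriptions.

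Of 60 further genes of the pathway, 31 reached 20 CPM in the Csf1r+ Lyz2+ cells. For WT TAC over WT sham 3 were higher by 1.5-fold and 1 lower, where 3.44% and 2.57% of all genes were. Thbs1, whose product thrombospondin-1 can release latent TGF-beta, was 107, 113, 361, 382 and 363 CPM, and Mmp14, a membrane protease, was 48.9, 58.9, 150.2, 136 and 115 CPM, both above each sham value in the 3 TAC groups. Fn1, the gene of fibronectin and a known target, was 795, 944, 1250.3, 2219 and 1028 CPM. Gdf15 was the lower gene, at 17.7 CPM in WT sham and 7.60 CPM in WT TAC. It reached 20 CPM only in CD3e-/- sham and the group labelled CD8-depleted TAC (26.2 and 20.8 CPM). With a mean over cells, with thinned cells or in all kept cells it was not counted as lower.

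For CD3e-/- TAC over CD3e-/- sham 5.56% of all genes were higher by 1.5-fold and 3.57% lower. Thbs1, Fn1 and Mmp14 were among the further genes higher by that fold. The 3 lower ones were the target genes Id2 (384 and 212 CPM) and Id3 (41.6 and 22.5 CPM) and the receptor gene Acvrl1 (101 and 55.7 CPM). Id2 and Id3 were also the 2 further genes higher in CD3e-/- sham than in WT sham, where Id2 was 208 CPM and Id3 23.9 CPM. In this comparison 1.31% of all genes were higher and 1.71% lower. Fn1 and Gdf15 were higher in CD3e-/- TAC than in WT TAC, where 1.04% of all genes were higher and 0.67% lower. Without the Prg4-rich cells Fn1 no longer passed the fold and Gdf15 did. With a mean over cells or in all kept cells Fn1 was counted and Gdf15 was not. Gdf15 was also the 1 further gene past the fold for the group labelled CD8-depleted TAC over WT TAC (20.8 and 7.60 CPM). There 0.67% of all genes were higher and 0.205% lower. Gdf15 was not counted in that comparison with a mean over cells, with thinned cells or in all kept cells.

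Over the gates, 52 of the further genes were tested. Against Ccr2+ cells, 3 were called higher in Lyve1+ cells (Bmpr1a, Pmepa1 and Ski) and 2 lower (Thbs1 and Mmp14), where 2.77% of all genes were higher and 5.6% lower. Pmepa1, a known target and feedback inhibitor of the pathway, was 176 CPM in Lyve1+ and 38.5 CPM in Ccr2+ cells (log2 ratio 2.28 ± 0.47, edgeR, adjusted p = 0.0023), and Mmp14 was 18.2 and 113 CPM (-2.46 ± 0.33, edgeR, adjusted p = 2.3e-05). In Ly6c2+ cells 0 of 52 were called by edgeR, 7 had an unadjusted p under 0.05, and DESeq2 called 2, both higher. In Cd79a+ cells 4 were called higher and 25 lower (12.5% and 20.1% of all genes), with Acvr1 at 0.326 CPM against 18.2 CPM and Ltbp3 at 0.435 CPM against 14.5 CPM, and in Cd3g+ cells 2 were higher and 16 lower (6.49% and 11.0% of all genes). Gdf11, the gene of a ligand of the family, was among the higher genes of both, at 19.6 and 14.1 CPM against 0.0705 CPM in Ccr2+ cells.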

How the data were processed

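CD45+ cells of hearts of 5 groups, marked by hashtags, were sequenced in 1 pooled TAS-Seq library. The authors deposited raw read counts per gene and cell, after trimming with cutadapt 2.10 and alignment with Bowtie2 2.4.2 per the processing notes (build GRCm38), with 0 other columns of per-sample values. Hashtags were assigned and doublets marked by the authors, as their notes tell, and marked columns were left out. The counts are reads, not molecules. Groups came from the notes deposited with the matrix.

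Here cells with at least 500 genes and a mitochondrial share of at most 0.4 were kept. Levels are reads of a group or gate per 1000000 reads. Ratios between groups have 10 CPM added and no test, since each group was 1 sample. Depth limits them: 3 reads were 0.0196 to 0.0511 CPM in the Csf1r+ Lyz2+ cells of the groups. Gates were compared on reads summed per gate and group (at least 10 cells) with edgeR 4.0.16 (TMM, filterByExpr, glmQLFit and glmQLFTest, group as a block, 21 residual degrees of freedom), after filters that kept 16604 genes. Counts of genes called or past a fold leave out the 8 gating genes. The block takes out differences between groups that all gates share. These p-values therefore rest on how the differences between gates vary over 5 groups of different condition. That spread was estimated over all gates together, with 1 sample per group. DESeq2 1.42.0 was an alternative, and others are given in the closing section. Shares of cells used cells thinned to 30000 reads. The steps were tested on simulated data with less spread between sums than these data had. Those runs checked the code and do not give the error rates for these data. R 4.3.3 and Python 3.11.15 were used.

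Every member was named. Other genes of the pathway were named up to 4 per comparison by size, and alike genes 3 per member. The members, lists and gates were chosen with earlier results of these data known. Some genes of these lists are not reported here.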

Additional observations from a re-analysis of the deposited data

Results flagged for a closer look

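The ratio of TAC to sham went opposite ways in WT and CD3e-/- mice for 5 members in the Csf1r+ Lyz2+ cells, with counting intervals of the levels apart in both, and the difference between the genotypes was not tested because each group was 1 sample. Tgif1 had a log2 ratio of 0.22 in WT and -0.38 in CD3e-/- mice. Smad7 had 0.41 and -0.18, at levels below 20 CPM. Smad3 had -0.15 and 0.44, and Tgfbr2 had -0.12 and 0.15, and in both genes CD3e-/- sham was the lowest group. Ltbp1 had -0.26 and 0.61, and 81.9% of its reads in CD3e-/- TAC were in 18 cells rich in Prg4. The counting intervals are narrow because each read is counted, so they are apart for small differences as well. The signs did not hold under each alternative: over these, Tgfbr2 lay between -0.18 and 0.13 in WT mice and between -0.08 and 0.18 in CD3e-/- mice, Smad7 between -0.21 and 0.63 in WT mice, and Ltbp1 between -1.01 and 0.03 in WT mice. Those of Smad3 and Tgif1 held in both genotypes under the 11 alternatives.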

How the results depend on the processing

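The count of 1 member past a fold of 1.5 for WT TAC over WT sham became 0 with a mean over cells, with thinned cells and with the gate shares of WT sham, the last of which was chosen after seeing the data. Of all genes, 3.62%, 3.66% and 2.64% were then higher by that fold, and 2.58%, 2.68% and 1.82% lower. The count for CD3e-/- TAC over CD3e-/- sham (1) became 2 with 1 CPM added, with no filter on level and in all kept cells, and 0 with the gate shares of WT sham. The added members were Smad3, Ltbp1 and Smad7 in turn. Under these settings in turn 8.05%, 1.74%, 5.35% and 5.06% of all genes were higher, and 5.15%, 1.18%, 4.86% and 3.28% lower. The count for CD3e-/- sham over WT sham (0) became 1 with 1 CPM added (Smad3, lower, as were 3.99% of all genes). That for CD3e-/- TAC over WT TAC (0) became 1 with no filter on level (Ltbp1, higher, as were 0.361% of all genes). The cause of these changes was not tested. The count of 0 for the group labelled CD8-depleted TAC over WT TAC was 0 under each alternative. Leaving out 1 group at a time, the members called numbered 1 to 1 for Lyve1+ over Ccr2+ cells, 1 to 2 for Ly6c2+ (main count 2), 5 to 7 for Cd79a+ (7) and 6 to 7 for Cd3g+ cells (7). Of all genes, 1.46% to 2.43%, 0.704% to 1.47%, 9.49% to 12.3% and 3.66% to 6.94% were then called higher. The shares called lower were 3.47% to 4.8%, 0.704% to 1.54%, 14.8% to 18.6% and 6.92% to 10.8%. Without the replicate block the members called numbered 1, 2, 6 and 7. Of all genes, 2.95%, 1.38%, 12.8% and 6.8% were then called higher, and 5.13%, 1.75%, 19.6% and 10.7% lower. The labels give no replicate numbers that pair samples, and the block is the hashtag group itself. Among members, no called value changed sign under an alternative.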
